A study of Mus musculus with 8 samples.

Results

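The acyl-CoA thioesterases described here are the 10 mouse genes Acot1, Acot2, Acot3, Acot4, Acot7, Acot8, Acot9, Acot11, Acot12 and Acot13. They were chosen by symbol: each probe set that the array annotation pairs with exactly 1 of these names was taken, which gave 15 probe sets for 10 of the 18193 genes on the array. Their transcripts were read on Affymetrix expression arrays, 1 for each of 8 newborn mice of age 2 days, from liver total RNA. In the knockout group were 4 mice of genotype Mfp2 -/-, and the comparison group was 4 wild type (WT) mice of the same age. Mfp2 is the multifunctional protein 2 of peroxisomes, encoded by Hsd17b4. The labels give no strain, sex or litter and do not say how the allele was made, and no treatment is named for either group. The comparison asks which thioesterase transcripts differ in newborn liver without this enzyme, and whether those of the cytosol, the mitochondria and the peroxisomes differ alike.

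Acyl-CoA thioesterases cleave the bond between a fatty acid and coenzyme A, which releases the free acid and CoA. They thereby set how much activated fatty acid a compartment holds and keep CoA available for further rounds of oxidation. Mfp2 carries out middle steps of the peroxisomal shortening of very long and branched acyl chains, bile acid precursors included. In liver, several thioesterase genes are known targets of PPARalpha, a fatty acid-sensing nuclear receptor. Acot1 to Acot6 encode closely related enzymes of the alpha/beta hydrolase fold that act in different compartments, while Acot7 to Acot13 encode enzymes of the hotdog fold.

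Values are log2 values made by the authors with RMA, and differences are knockout minus wild type with the standard error (SE) of limma's fit. Group means carry the standard deviation (SD) over 4 livers. Adjusted p-values are limma's, with Benjamini-Hochberg adjustment over all 45037 probe sets and a threshold of 0.05. Hsd17b4 checked the labels, with values from 3.25 to 4.29 in knockout and from 8.15 to 8.97 in wild type livers. The summed level of 8 measured hepatocyte markers, as a mean per liver, ran from 11.9 to 12.2 in knockout and from 11.7 to 11.9 in wild type livers, so the tissue label fits these markers. The mean of the Y-linked genes lay from 2.04 to 2.50 in 3 livers (knockout 1 and 2, wild type 3) and from 4.59 to 5.36 in the other 5. Xist, a transcript of female cells, ran from 8.59 to 9.28 in those 3 livers and from 2.83 to 4.32 in the other 5. By both signals the 3 livers are female and the other 5 male, so sex is not balanced between the groups. The array medians lay between 3.68 and 3.73, and a value near or below them is not shown to be above background.

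None of the 10 genes passed the threshold in limma, where 1.15% of all genes did, 0.308% higher and 0.841% lower in the knockout. Of the 15 probe sets 0 passed as well, against 0.762% of all probe sets. At an unadjusted p under 0.05 there were 7 of the 10 genes, 5 higher and 2 lower in the knockout, where 14.6% of all genes lay under that value, and 9 of the 15 probe sets, where 11.7% of all probe sets did. The mean was higher in the knockout for 6 of the 10, a share to be read beside the 53.3% of all genes with a higher knockout mean. The groups did not overlap in 4 genes, against 8.61% of all genes. Acot1 and Acot2 lay higher without overlap, as 3.59% of genes did, and Acot9 and Acot11 lower, as 5.02% of genes did. By probe set, 6 of the 15 were without overlap, against 6.90% of all. The median difference over the 10 genes was 0.33, beside 0.01 over all genes.

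**Figure D1:**
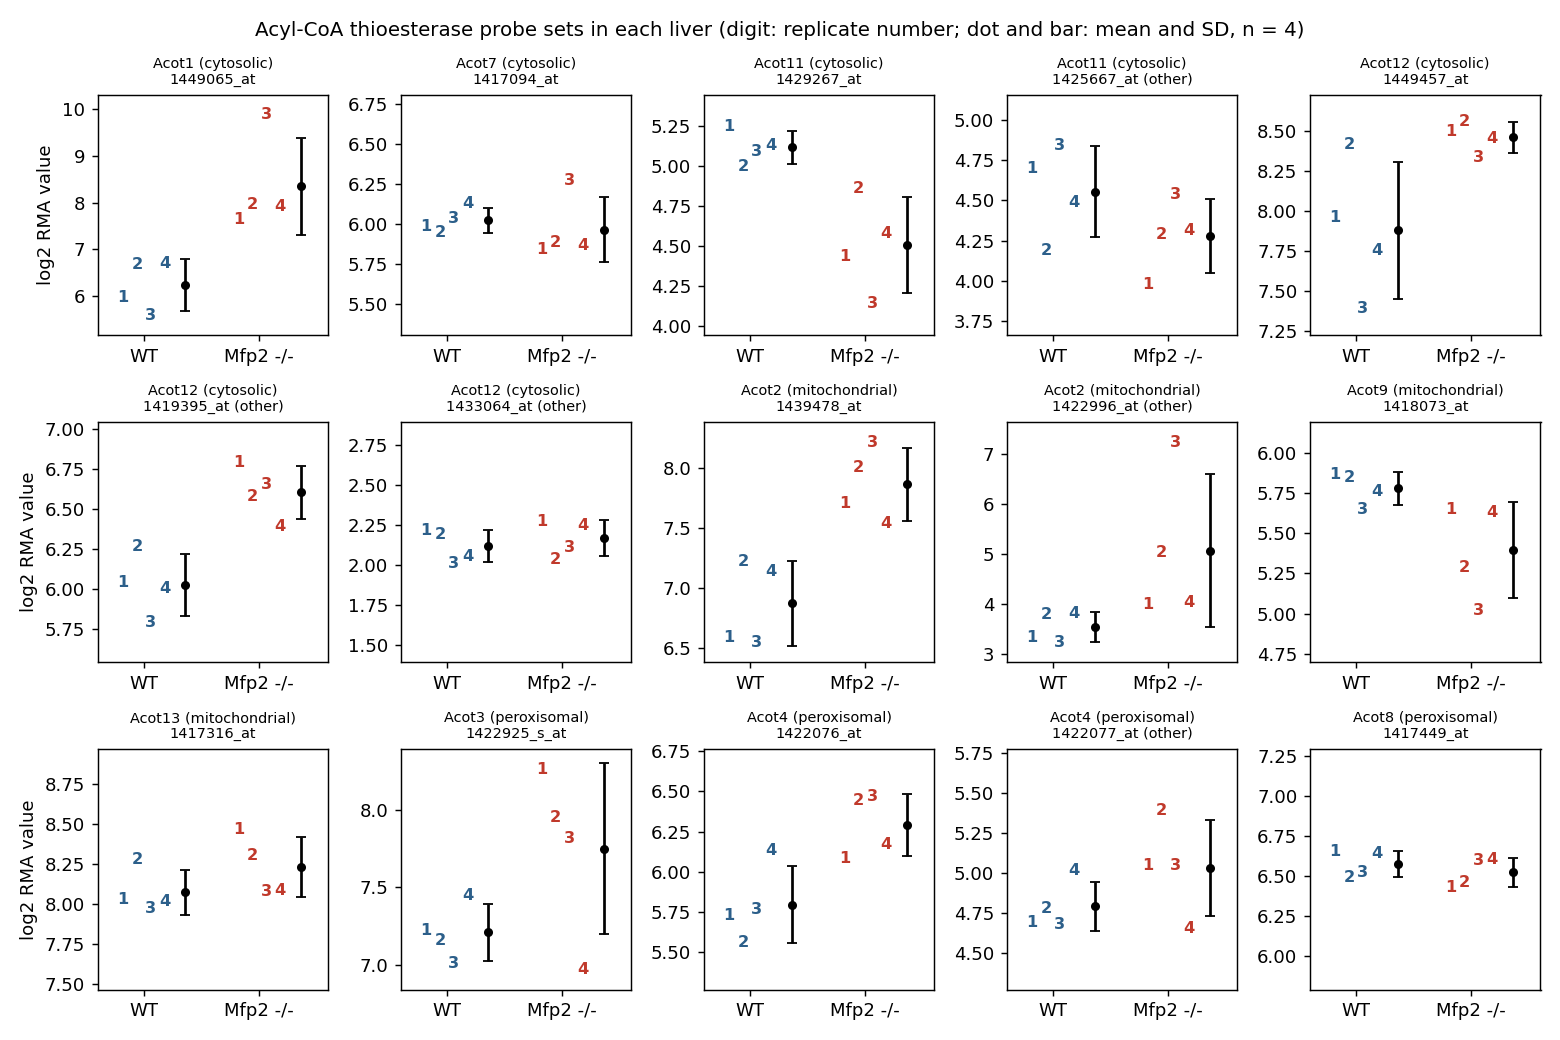
Log2 RMA value (vertical axis) of each of the 15 probe sets in wild type (blue) and Mfp2 -/- (red) livers, where a digit is 1 liver and gives its replicate number, and the black dot and bar are the mean and SD of 4 livers. Vertical ranges differ between panels; knockout 3 stands apart in Acot1, at 9.87, and in the other Acot2 probe set, at 7.25.

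Among the cytosolic enzymes, Acot1 showed the widest gap between the groups. Acot1 cleaves long-chain acyl-CoA in the cytosol. Its probe set 1449065_at read 7.63, 7.96, 9.87 and 7.92 in knockout 1 to 4 and 5.97, 6.68, 5.60 and 6.71 in wild type 1 to 4. Each knockout liver lay above each wild type liver, and knockout 3 lay far above the other knockout livers. The difference was 2.10 ± 0.46 (SE), a 4.30-fold higher level, with a limma adjusted p of 0.0773. Without knockout 3 it was 1.60 ± 0.26 (SE), or 3.02-fold, with an adjusted p of 0.0770, so the smaller difference came with a smaller error.

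Acot12, the liver's cytosolic acetyl-CoA hydrolase, has 3 probe sets. The brightest, 1449457_at, read 8.49, 8.56, 8.33 and 8.45 in knockout 1 to 4 and 7.96, 8.41, 7.39 and 7.75 in wild type 1 to 4. The groups overlapped, because wild type 2 lay above knockout 3, and the wild type livers were the more spread out. The difference was 0.58 ± 0.19 (limma adjusted p 0.234). The probe set 1419395_at gave a like difference of 0.58 ± 0.13 (adjusted p 0.0764) without overlap, from 6.39 to 6.79 in knockout and from 5.79 to 6.27 in wild type livers. The third, 1433064_at, lay below the median of every array in all 8 livers, with a difference of 0.05 ± 0.10 (adjusted p 0.906), and says little about the gene.

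Acot11 went the other way. It is also known as Them1, a long-chain acyl-CoA thioesterase with a lipid-binding START domain that was named for its induction in brown fat. Its probe set 1429267_at read 4.44, 4.86, 4.14 and 4.58 in knockout 1 to 4, all below the wild type values of 5.25, 5.0, 5.09 and 5.13. This is a gap of -0.61 ± 0.15 (SE), 1.53-fold down from the wild type mean, at adjusted p 0.101 in limma. The second probe set, 1425667_at, differed by -0.28 ± 0.16 (adjusted p 0.576), from 3.98 to 4.54 in knockout and from 4.19 to 4.84 in wild type livers, so it had the same sign with overlapping groups. Knockout 3 was the lowest of the knockout livers in the first probe set and the highest of them in the second.

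Acot7, a long-chain thioesterase best known from brain, had no difference beyond its error. Knockout values were 5.84, 5.88, 6.27 and 5.87, and wild type values were 5.99, 5.95, 6.03 and 6.13. Here knockout 3 alone lay above the wild type livers while the other 3 knockout livers lay below them. The difference was -0.06 ± 0.11, with a 95% confidence interval from -0.31 to 0.20, and -0.16 ± 0.09 without knockout 3 (adjusted p 0.624).

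Of the mitochondrial enzymes, Acot2 had the lowest p of the 10 genes. Acot2 cleaves long-chain acyl-CoA in the mitochondrial matrix. Its probe set 1439478_at read 7.71, 8.0, 8.21 and 7.53 in knockout 1 to 4 and 6.58, 7.22, 6.55 and 7.14 in wild type 1 to 4. The groups did not overlap, and within wild type livers 2 and 4 lay above livers 1 and 3. The difference was 0.99 ± 0.20 (SE), a 1.99-fold higher level, with a limma adjusted p of 0.0583. It ran from 0.88 without knockout 3 to 1.11 without wild type 2, and the adjusted p from 0.0465 to 0.189.

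The second Acot2 probe set, 1422996_at, was dim in most livers and bright in 1. It read 3.99, 5.03, 7.25 and 4.02 in knockout 1 to 4 and 3.33, 3.79, 3.23 and 3.82 in wild type 1 to 4. Most of these values lie near the array medians, and the difference of 1.53 ± 0.61 (adjusted p 0.357) was 0.80 ± 0.27 without knockout 3 (adjusted p 0.328).

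Acot9, a mitochondrial thioesterase of broad chain-length range, was lower. Knockout values were 5.65, 5.29, 5.02 and 5.63 and wild type values were 5.87, 5.85, 5.65 and 5.76. The highest knockout and the lowest wild type value are the same at this rounding, so the groups are separate by less than a hundredth of a log2 unit. The difference was -0.38 ± 0.14 (limma adjusted p 0.322), and -0.26 ± 0.12 without knockout 3. Acot9 lies on chromosome X, and with the Y-linked mean as a covariate it differed by -0.39 ± 0.16 (limma adjusted p 0.364). A probe set that the annotation assigns to both Acot9 and its near relative Acot10 differed by -0.44 ± 0.14 (adjusted p 0.208), with overlapping groups.

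Acot13, also known as Them2, is found at mitochondria and binds the phosphatidylcholine transfer protein. Its values were 8.46, 8.30, 8.08 and 8.08 in knockout and 8.03, 8.28, 7.97 and 8.02 in wild type livers. The groups overlapped and the difference was 0.16 ± 0.12 (adjusted p 0.687), with a 95% confidence interval from -0.11 to 0.42.

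Among the peroxisomal enzymes, Acot4 and Acot3 had higher means in the knockout and Acot8 did not. Acot4 is known in mouse as a thioesterase for succinyl-CoA and other dicarboxylic acyl-CoAs. Its probe set 1422076_at read 6.08, 6.44, 6.47 and 6.17 in knockout 1 to 4 and 5.72, 5.56, 5.76 and 6.13 in wild type 1 to 4. Wild type 4 alone reached into the knockout range, just above knockout 1. The difference was 0.50 ± 0.14 (SE), or 1.41-fold, with a limma adjusted p of 0.175. The second probe set, 1422077_at, differed by 0.24 ± 0.15 (adjusted p 0.610), with knockout 4 the lowest of all 8 livers at 4.66.

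Acot3, a peroxisomal long-chain thioesterase, varied most among the knockout livers of the peroxisomal members. It read 8.26, 7.95, 7.81 and 6.97 in knockout 1 to 4 and 7.22, 7.16, 7.01 and 7.45 in wild type 1 to 4. Knockout 1, 2 and 3 lay above all wild type livers and knockout 4 lay below them all. The difference was 0.54 ± 0.24 (adjusted p 0.420), and without knockout 4 it was 0.80, with an adjusted p of 0.105. The suffix of its probe set, 1422925_s_at, marks probes that can match several related transcripts, and how far its neighbours enter this value was not tested.

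Acot8 is the peroxisomal thioesterase of broadest range, which also acts on bile acid CoA esters. Its values stayed within 6.43 to 6.60 in knockout and 6.49 to 6.65 in wild type livers. The difference was -0.05 ± 0.09, with a 95% confidence interval from -0.25 to 0.15, the narrowest of the 10 genes.

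**Figure D2:**
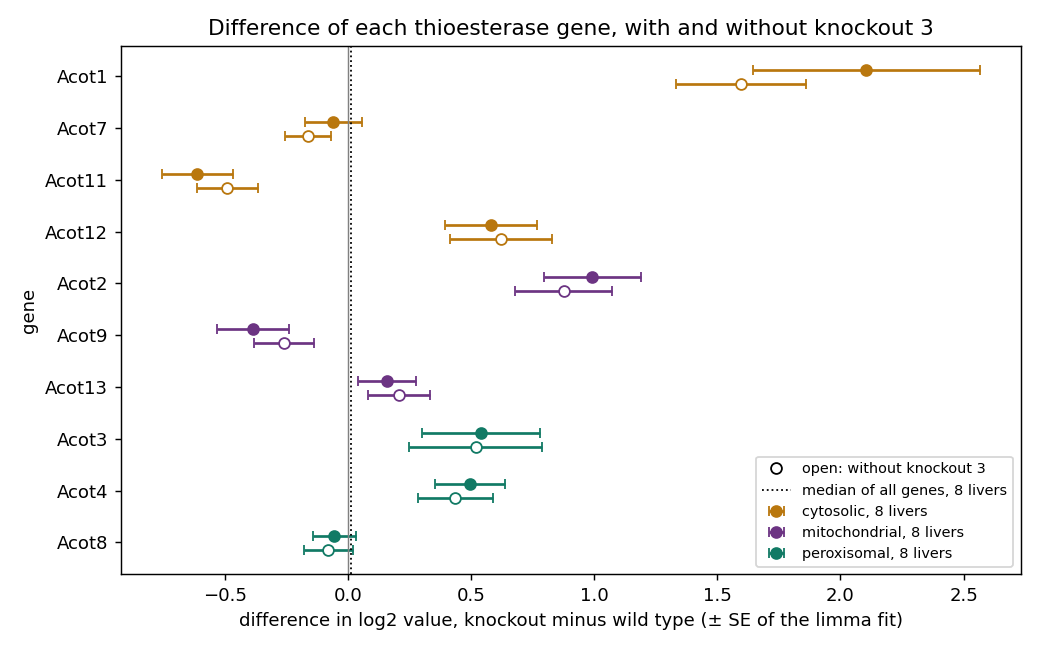
Difference in log2 value, knockout minus wild type (horizontal axis), of the 10 thioesterase genes, each by its brightest probe set, with the SE of limma's fit; filled points use all 8 livers, open points leave out knockout 3, and colour gives the location. Acot1, at 2.10 with all livers and 1.60 without knockout 3, and Acot2, at 0.99 and 0.88, lie furthest to the right, and Acot11, at -0.61 and -0.49, furthest to the left.

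The compartments were not set apart by the sign of the mean, since each held genes with higher and genes with lower knockout means. In the peroxisomal group the only lower mean was that of Acot8, whose difference of -0.05 ± 0.09 (SE) lay within its error. The 4 cytosolic genes ran from -0.61 for Acot11 to 2.10 for Acot1, with a median of 0.26. The 3 mitochondrial genes ran from -0.38 for Acot9 to 0.99 for Acot2, with a median of 0.16. The 3 peroxisomal genes ran from -0.05 for Acot8 to 0.54 for Acot3, with a median of 0.50. Without knockout 3 the medians were 0.23, 0.21 and 0.44 in the same order. Acot7, Acot11 and Acot13 are known from more than 1 location, and without them the cytosolic median was 1.34 and the mitochondrial 0.30. The former then rests on Acot1 and Acot12 only, and the latter on Acot2 and Acot9 only. No test was made of any of these medians, and those of all members rest on 3 or 4 genes each.

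Every gene of the alpha/beta hydrolase fold among the 10, Acot1, Acot2, Acot3 and Acot4, had a higher knockout mean, at an unadjusted p under 0.05, which 14.6% of all genes reached in either direction. Acot3 was closest to that level, with a difference of 0.37 ± 0.23 (SE) without knockout 1. These 4 are neighbours on chromosome 12, in the order Acot2, Acot1, Acot4, Acot3, followed by Acot5 and Acot6. Acot5, a peroxisomal enzyme for medium chains, read at most 2.04 in any liver, below the array medians, and has no interpretable value. Acot6, a peroxisomal enzyme for phytanoyl-CoA and pristanoyl-CoA, differed by -0.00 ± 0.15 (SE) in its brighter probe set (limma adjusted p 0.997). Its values ran from 5.68 to 6.0 in knockout and from 5.55 to 6.23 in wild type livers. These 2 neighbours are not among the 10 genes and were on the list of related enzymes.

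Acot1 and Acot2 are so alike that the array has a probe set for both. That probe set, 1422997_s_at, read 7.87, 8.35, 10.2 and 8.36 in knockout 1 to 4 and 6.14, 7.11, 5.85 and 6.99 in wild type 1 to 4. It ordered the livers much as Acot1 did, with knockout 3 far above the rest and wild type 1 and 3 at the bottom. The second Acot2 probe set, 1422996_at, had the same livers at its top and bottom, with knockout 3 at 7.25. The difference of the shared probe set, 1422997_s_at, was 2.18 ± 0.48 (SE), or 4.54-fold, with a limma adjusted p of 0.0799, and 1.67 ± 0.31 without knockout 3. How much of the signal at the probe set of either gene comes from the other was not tested.

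Whether the neighbours differed from each other in response was tested on the difference of 2 genes within each array. For 4 against 4 livers the exact permutation test, two-sided, allows no p below 0.0286. Each gene was taken by its brightest probe set. Acot1 minus Acot2 ran from -0.08 to 1.66 in knockout and from -0.95 to -0.43 in wild type livers, without overlap. The excess of Acot1 was 1.11 on the log2 scale, with an exact permutation p of 0.0286 and 0.0857 adjusted over the 6 pairs, and it was 0.72 without knockout 3. Acot1 against Acot4 gave an excess of 1.61, also without overlap, with an exact permutation p of 0.0286 and 0.0857 adjusted. Acot1 against Acot3 gave 1.56, with overlap and an adjusted exact permutation p of 0.114. The excess of Acot1 over Acot2 depended on the Acot2 probe set. With the mean of all probe sets of a gene it was 0.84, with an adjusted exact permutation p of 0.0857. The second, dim Acot2 probe set differed by 1.53 ± 0.61 (SE) between the groups, beside 2.10 for Acot1. Without knockout 3 these differences were 0.80 and 1.60. Acot1 against that probe set alone was not tested.

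The other 3 pairs were closer. Acot2 exceeded Acot4 by 0.50 and Acot3 by 0.45, with adjusted exact permutation p of 0.171 and 0.240. Acot3 and Acot4 differed by 0.04, with an adjusted exact permutation p of 0.83. None of the 6 pairs passed after adjustment, and at an unadjusted p under 0.05 there were 2, both with Acot1. Both lay at the lowest exact permutation p that 4 against 4 livers allow. With only 2 of 6 pairs there, the adjustment cannot give a value under 0.05. Not passing therefore does not show that these genes responded alike. Without knockout 3, Acot1 exceeded Acot4 by 1.16 with an exact permutation p of 0.0571, which leaves 1, and Acot3 by 1.08 with an exact permutation p of 0.0857.

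**Figure D3:**
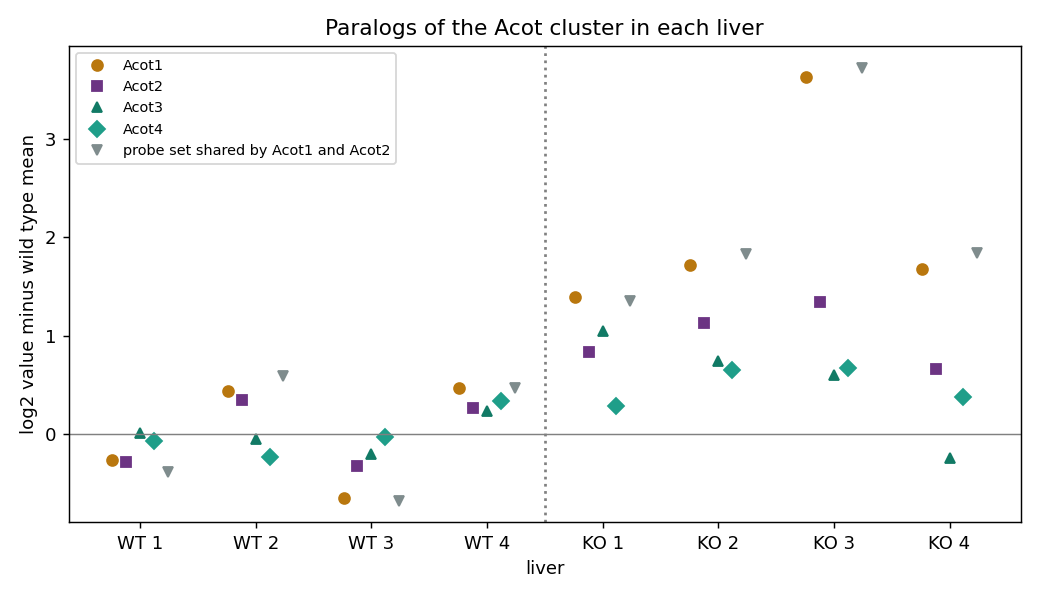
Log2 value minus the wild type mean of the same probe set (vertical axis) in each liver (horizontal axis) for Acot1, Acot2, Acot3, Acot4 and the probe set shared by Acot1 and Acot2. Each gene is drawn by its brightest probe set. In knockout 3, Acot1 and the shared probe set lie far above Acot2, Acot3 and Acot4 as drawn. The second Acot2 probe set, 1422996_at, is not drawn and read 7.25 there, against a wild type mean of 3.54. In knockout 4, Acot3 lies below its wild type mean.

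The stretches before the starts of these neighbours are shown because the 4 genes had the same sign. They come from RefSeq, build GRCm38.p6, with the window furthest upstream where a gene had several. Of the 10 genes 9 were matched there and Acot13 was not. Each was searched on both strands for AGGTCANAGGTCA, the direct repeat with 1 base between that PPARalpha binds with its partner RXR, and capitals mark the 13 bases with the fewest mismatches to its 12 fixed letters, on the opposite strand for Acot1 and Acot3. Windows of 250 bases up to the start are given for Acot2 (chr12:83987611-83987860), Acot1 (chr12:84009252-84009501) and Acot3 (chr12:84051894-84052143), all on the plus strand.
Acot2: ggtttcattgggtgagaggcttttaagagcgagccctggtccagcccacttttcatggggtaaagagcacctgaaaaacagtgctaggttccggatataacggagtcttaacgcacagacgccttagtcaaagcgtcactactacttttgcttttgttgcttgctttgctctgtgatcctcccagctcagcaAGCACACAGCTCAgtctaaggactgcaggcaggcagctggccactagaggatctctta
Acot1: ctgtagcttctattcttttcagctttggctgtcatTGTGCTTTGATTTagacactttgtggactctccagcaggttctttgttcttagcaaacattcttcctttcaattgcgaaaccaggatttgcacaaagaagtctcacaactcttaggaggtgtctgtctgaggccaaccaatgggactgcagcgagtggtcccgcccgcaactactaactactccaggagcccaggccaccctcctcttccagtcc
Acot3: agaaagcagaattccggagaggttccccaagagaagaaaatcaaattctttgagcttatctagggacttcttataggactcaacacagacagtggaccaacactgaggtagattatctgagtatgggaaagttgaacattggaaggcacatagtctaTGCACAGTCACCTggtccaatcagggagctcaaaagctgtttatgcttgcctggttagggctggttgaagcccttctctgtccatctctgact

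The best match had 3 mismatches before Acot2, as few as 21.3% of all 32851 promoter windows of this length hold, and 4 before Acot1 and Acot3, as few as 74.5% hold. The closest matches among the 9 genes lay before Acot12 and Acot4. For these only the match and the bases before it are given, at chr13:91741395-91741423 and chr12:84038350-84038378, plus strand, with the repeat on the opposite strand.
Acot12: ctgactcgtaggacccTGACCTCTCACCT
Acot4: gctcagccccgaagcaTGACCTTTGGCCG
Acot12 had 1 mismatch, which 0.484% of all windows equal or better, and Acot4 had 2, which 3.24% equal or better. These shares are for single windows, while the 2 matches were picked as the closest of 9, so no test applies. An exact match was in 0 of the 9 windows and in 0.0335% of all windows. A match describes the letters only, and its absence from 250 bases says nothing of sites elsewhere.

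The genes whose pattern over the 8 livers was most like that of Acot2 were Wdr20, Plin2, Foxa1, Palmd and Dclre1b. Likeness was the Pearson correlation of deviations from the group means over 8 livers. The candidates were the 9087 genes, members left out, whose mean over all arrays lay above the median of all genes. The correlation ran from 0.934 to 0.969 for the 5 named. They were picked as the highest of 9087, so no test applies. Plin2, which coats lipid droplets, had a correlation of 0.968, and 0.980 without knockout 3. Its own difference between the groups was 0.46 ± 0.17 (SE), with a limma adjusted p of 0.306. Palmd, which encodes palmdelphin, differed by 0.65 ± 0.15 (adjusted p 0.0931), and Foxa1, a liver transcription factor, by 0.39 ± 0.19 (adjusted p 0.480). Wdr20 differed by -0.10 ± 0.11 (adjusted p 0.818). Dclre1b, a DNA repair nuclease, fell by 0.67 ± 0.11 (adjusted p 0.0366), a call lost without knockout 3 (adjusted p 0.0677) and open to single arrays, with adjusted p from 0.0465 to 0.126 when each was left out. Among these picked genes, Wdr20 and Dclre1b thus had a difference between the groups of the other sign than Acot2. Whether any of them follows Acot2 beyond what such picking gives was not tested.

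Around the thioesterases, other genes that make, carry or break acyl-CoA were taken by list. Of 15 measured acyl-CoA synthetases, which do the reverse of a thioesterase, 2 passed the threshold in limma as higher and 0 as lower. Over all genes the shares were 0.308% and 0.841%. The list had 9 higher and 6 lower knockout means and a median of 0.18, or 0.30 without knockout 3. At an unadjusted p under 0.05 there were 4 higher and 1 lower. Over all genes 14.6% lay under that value, to be read beside this count and those of the lists below. Slc27a5, which activates bile acids, rose by 0.78 ± 0.12 (SE, limma adjusted p 0.0340), and Acsl3, a long-chain synthetase, by 0.65 ± 0.12 (adjusted p 0.0499). Neither passed without knockout 3, at adjusted p of 0.0845 and 0.125. With each array left out in turn the adjusted p ran from 0.0376 to 0.126 for Slc27a5 and from 0.0765 to 0.152 for Acsl3. Of 12 genes of CoA synthesis and breakdown 0 passed in limma, with a median of 0.18, 4 higher and 1 lower at an unadjusted p under 0.05. Pank3, a pantothenate kinase of CoA synthesis, had the lowest p there, with a difference of 0.69 ± 0.16 (adjusted p 0.0911).

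Of 9 other thioesterases and acyltransferases 0 passed in limma, with a median of 0.12, or 0.051 without knockout 3, and 1 at an unadjusted p under 0.05. That was Hibch, which cleaves hydroxyisobutyryl-CoA in valine breakdown, at 0.54 ± 0.21 (adjusted p 0.339). Of 8 acyl-CoA binding proteins 0 passed in limma, with a median of 0.066, or 0.11 without knockout 3, and 1 at an unadjusted p under 0.05, Acbd5, a peroxisomal membrane protein that binds acyl-CoA, at 0.65 ± 0.24 (adjusted p 0.307).

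**Figure D4:**
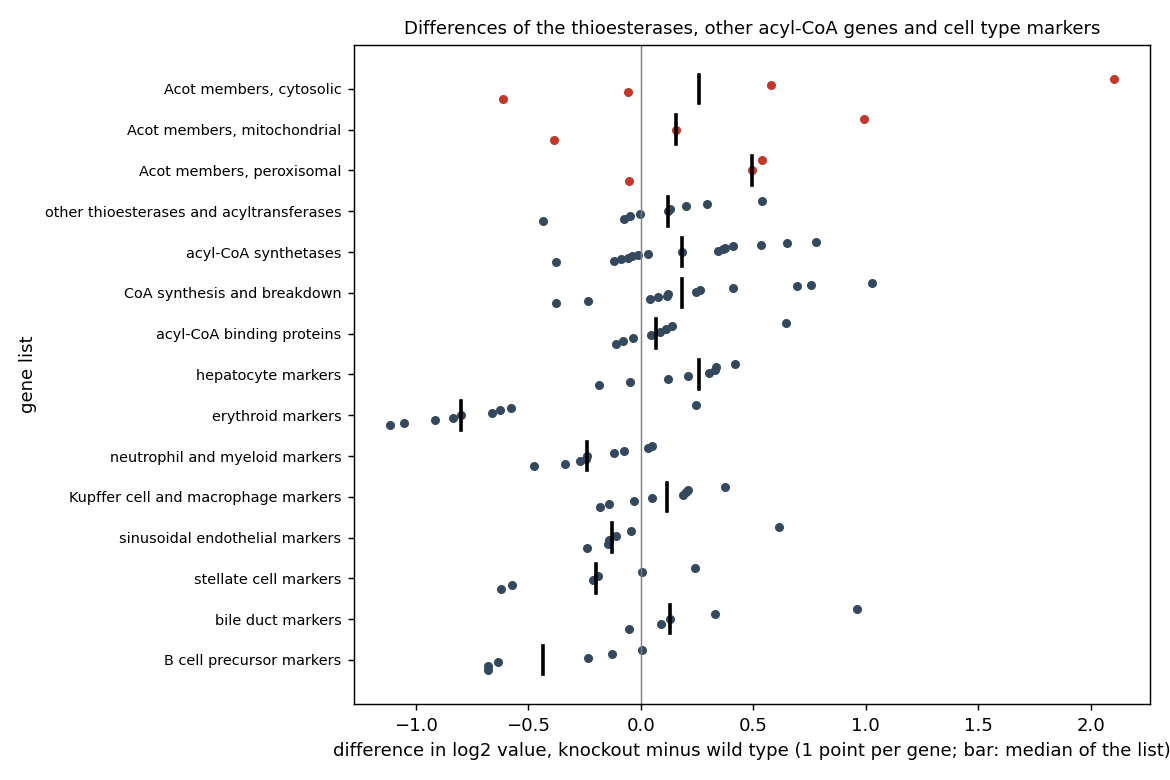
Difference in log2 value, knockout minus wild type (horizontal axis), for each measured gene (1 point) of the thioesterases by location (red), of other acyl-CoA genes and of cell type markers (dark), with the list median as a bar. The 4 cytosolic members span from -0.61 to 2.10, the widest range drawn, and the erythroid markers have the lowest median, -0.80.

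Markers of other cells in newborn liver were read beside these values. Of 9 measured erythroid markers, from blood-forming cells that newborn liver still holds, 8 had lower knockout means, all at an unadjusted p under 0.05 and without overlap. Of all genes, 14.6% lay under that p in either direction and 5.02% were lower without overlap. Rhag alone passed in limma, at -0.80 ± 0.15 (SE, adjusted p 0.0480, and from 0.0399 to 0.169 with each array left out in turn). The ninth, Hba-a1, had means of 2.14 and 1.90, below the array medians. The mean of the 9 per liver ran from 7.53 to 8.15 in knockout and from 8.43 to 8.62 in wild type livers, without overlap. In bulk liver, fewer cells of a type and less RNA per cell cannot be told apart. With that mean as a covariate, Acot1 differed by 0.91 ± 0.98, Acot2 by 1.02 ± 0.46, Acot3 by 1.46 ± 0.44 and Acot11 by -0.18 ± 0.30, in a fit where the mean nearly follows the genotype. In that fit 0 probe sets of the whole table passed in limma and 2078 lay at an unadjusted p under 0.05. The part of erythroid cells in the thioesterase values cannot be told apart from that of the genotype.

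The other marker lists had 0 genes past the threshold in limma. Their counts at an unadjusted p under 0.05 are to be read beside the 14.6% of all genes under it. The median was 0.26 over 8 hepatocyte markers, and 0.093 without knockout 3, with 3 at an unadjusted p under 0.05 and Fgb at 0.31 ± 0.09 (SE, adjusted p 0.187). It was -0.24 over 9 neutrophil and myeloid markers, 0 of them under that p, with Ltf at -0.47 ± 0.22. It was 0.12 over 8 Kupffer cell and macrophage markers, 1 under that p, C1qa at 0.37 ± 0.16. It was -0.13 over 6 sinusoidal endothelial markers, 0 under that p, with Lyve1 at 0.61 ± 0.30, and it changed sign to 0.035 without knockout 3. It was -0.20 over 6 stellate cell markers, 0 under that p, with Lrat at -0.57 ± 0.32, and these were -0.088 and -0.30 without knockout 3. Of 5 bile duct markers, with a median of 0.13, 1 was under that p, Cldn7 at 0.96 ± 0.32, or 0.58 without knockout 3. Of 6 B cell precursor markers, with a median of -0.43, 3 were under it, with Ebf1 at -0.63 ± 0.20, from a knockout mean of 2.98 below the array medians. The part of these cells in the thioesterase values was not tested.

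Acot1, Acot2, Acot11 and Acot12 crossed the threshold in single alternatives. In a fit that adds the Y-linked mean, Acot1 differed by 2.31 ± 0.34 (SE, limma adjusted p 0.0217) and Acot2 by 1.05 ± 0.19 (adjusted p 0.0422), and both passed. Without wild type 2, Acot2 passed at 1.11 (adjusted p 0.0465) and Acot12 at 0.76 (adjusted p 0.0486), and without knockout 2, Acot11 passed at -0.73 (adjusted p 0.0482). Values are also given within replicates 1 and 2 and within replicates 3 and 4, a split taken from the arrays' values that no label names as a batch. In replicates 1 and 2 both knockout livers had low and both wild type livers high Y-linked means, so genotype and sex by that signal cannot be told apart there. Within replicates 1 and 2 alone Acot1 differed by 1.47 and Acot2 by 0.95, and within replicates 3 and 4 alone by 2.74 and 1.03. Acot3 differed by 0.92 within the first set and by 0.16 within the second, and Acot11 by -0.47 and -0.75.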

How the data were processed

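The authors deposited log2 values from RMA, as the submitters' processing notes name it. No version of it is named there. RMA corrects background, gives all arrays 1 distribution of probe values and summarises each probe set, so a change in total mRNA cannot be seen and dim probe sets have compressed differences. Arrays give no read depth, and 4 against 4 arrays limit the precision. The 64 array controls were left out, which left 45037 probe sets, of which 34945 are annotated to 1 gene, 932 to several and 9160 to none.

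Knockout was compared with wild type with lmFit and two-sided eBayes tests of limma 3.58.1 (R 4.3.3), without covariates, after a test on simulated data. Where a gene had several probe sets, that of the highest mean was used. Nothing says whether the mice came from separate litters, so p-values measure the spread between these livers.

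The members and lists were chosen with earlier results of these data known. The text names all members, and up to 3 genes past the threshold of each other list, or the 1 with the lowest p. Also named are the 5 genes most like the member with the lowest p, among genes with a mean above the median of all genes. Alternatives changed 1 choice at a time: probe set choice, a filter on dim probe sets, normalization, variance estimation, array weights, the replicate block, sets of arrays, the erythroid or Y-linked mean as a covariate, members of several locations, and each array left out. Genes on the lists without a probe set under the listed symbol were not used here.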

Additional observations from a re-analysis of the deposited data

Results flagged for a closer look

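Single livers far from the other 3 of their group, by Dixon's test, were found in 8 of 80 groups of 4 over 40 probe sets, where chance gives about 1 in 20 groups. Knockout 3 stood apart among the members: in Acot1, at 9.87 with the nearest knockout liver at 7.96, and in Acot7, at 6.27 with the nearest at 5.88. In the dim probe set of Acot6, 1460388_at, knockout 1 read 3.20 with the nearest at 2.95. In the second probe set of Hsd17b4, 1455777_x_at, knockout 1 read 3.06 with the nearest at 1.88, and wild type 3 read 8.78 with the nearest at 7.96. In Hibch wild type 2 read 8.14 with the nearest at 7.37, and in Acbd5 wild type 1 read 7.30 with the nearest at 8.18. In C1qa wild type 1 read 8.03 with the nearest at 7.59.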

How the results depend on the processing

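The direction of 9 of the 10 genes held in every alternative that was run, and Acot8 turned to 0.019 within replicates 3 and 4. The count of genes past the threshold, 0 higher and 0 lower, became 1 higher with dim probe sets left out (Acot2, adjusted p 0.0442), with trended and robust variance (Acot2, 0.0470) and with the mean of all probe sets of a gene (Acot1, 0.0496). It became 2 higher with the Y-linked mean, and 2 higher and 1 lower with array weights (Acot1, Acot2 and Acot11, adjusted p 0.0467, 0.0451 and 0.0477). With 1 array left out it ran from 0 to 2 higher and from 0 to 1 lower. The 0 member probe sets became 1 with dim probe sets left out, with trended variance and with the 2 sets of arrays as a term (1419395_at of Acot12), 2 with the Y-linked mean and 4 with array weights, and ran from 0 to 3 with 1 array left out.

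The calls over the whole table, 343, became 914 with array weights, 527 with the Y-linked mean, 4 within replicates 1 and 2 and 0 with the erythroid mean in limma (2078 at an unadjusted p under 0.05), and ran from 9 without wild type 4 to 489 without wild type 2, with 13 without wild type 3 or knockout 4, 38 without knockout 3, and 161 or 177 when wild type 1 or knockout 1 was left out. Quantile normalization again gave 230 and 2 sets of arrays (replicates 1 and 2, replicates 3 and 4, a split no label names) as a term 514. The cytosolic median of 0.26 was 0.12 within replicates 1 and 2, 0.40 within replicates 3 and 4, 0.14 with the erythroid mean, 0.17 with the mean of all probe sets and 1.34 without members of several locations, and ran from 0.18 to 0.34 with 1 array left out. The mitochondrial median of 0.16 was 0.40 with the erythroid mean and 0.087 within replicates 3 and 4, and ran from 0.080 (without knockout 1) to 0.23 with 1 array left out. The peroxisomal 0.50 was 0.16 within replicates 3 and 4, and ran from 0.37 to 0.61. The difference of Acot3 minus Acot4 ran from -0.20 to 0.26 with 1 array left out. The cause of these shifts was not tested. With 3 against 4 livers the exact permutation test allows no p below 0.0286.

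Replicate numbers did not pair the livers throughout. The correlation of deviations of same-numbered livers was -0.0039 and 0.069 for replicates 1 and 2, and 0.17 and 0.26 for replicates 3 and 4. Of the 8 livers 3 correlated best with their own number, namely knockout 4, wild type 3 and wild type 4. Whether replicates 3 and 4 were paired was not tested. With the replicate block 15 probe sets of the table passed, 0 of them members, and no paralog pair passed by sign flips, which allow no p below 0.125.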
